A study of Mus musculus with 9 samples.

Results

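The genes described here encode LIM domain transcription factors and their partners in inhibitory neurons of the mouse central amygdala. They were chosen by name as Isl1, Lhx6, Lhx8, Lmo1, Lmo3, Lmo4, Ldb1, Ldb2 and Csrp2, and 8 of these 9 are described, among 22601 genes in the count table. Lhx8 was not analysed here. The data are single-cell RNA-seq counts from 9 samples of 1 group. All of them are wild-type (WT) B6 mice, and the cells were microdissected from the central amygdala and pooled over acute slices. The sources used here give no age, sex or treatment. The samples cross 3 animal numbers with 3 date fields, 1 sample to each combination, and samples 1 to 3, 4 to 6 and 7 to 9 share a date field. No label says whether separate animals gave the samples, so p-values measure the spread between these samples only, which may be technical.

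LIM domains are zinc-binding folds through which proteins hold one another. LIM homeodomain proteins such as Isl1 and Lhx6 also bind DNA, at sites with a TAAT core, and set the identity of neurons during development. LIM-only proteins (Lmo1, Lmo3 and Lmo4) have LIM domains and no DNA-binding domain, and compete with LIM homeodomain factors for the LIM domain-binding proteins Ldb1 and Ldb2, which dimerise and so bridge factors into complexes. Csrp2 encodes a cysteine- and glycine-rich LIM protein that is best known from smooth muscle. In the forebrain, Isl1 is known for striatal projection neurons and cholinergic neurons, and Lhx6 for interneurons born in the medial ganglionic eminence.

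A cell was called positive for a gene at 1 or more counts per 10000 of its gene counts, with spike-in rows left out. A cell counted as an inhibitory neuron where it was positive for any of Gad1, Gad2 and Slc32a1, the genes of GABA synthesis and vesicular loading, and negative for the vesicular glutamate transporters Slc17a7 and Slc17a6. They made up 810 of the 829 cells, with 82 to 95 in a sample and a median of 126576 gene counts per neuron. Sample medians lay between 96675 and 227570 counts. Of 376 cell barcodes, 368 occurred in more than 1 sample, and no pair of cells had identical counts. Neurons were split by Prkcd (protein kinase C delta, 343 positive cells), Sst (somatostatin, 148), Tac2 (the neurokinin B precursor, 110), Nts (neurotensin, 115) and Nr2f2 (a nuclear receptor also called COUP-TFII, 116). These classes overlap, since 171 neurons were positive for several of the 5 markers and 218 for none.

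Lmo3 was positive in 51.6% ± 5.69 of neurons (SD, n = 9 samples) and Ldb2 in 34.5% ± 7.21. Lmo4 was positive in 13.4% ± 4.48, Ldb1 in 11% ± 3.85, Lmo1 in 9.83% ± 3.67, Isl1 in 9.30% ± 3.58 and Csrp2 in 5.48% ± 2.86. Lhx6 was positive in 6 of the 810 neurons, with at least 1 count in 19. Any use of molecular identifiers is not given, and shares may depend on transcript length as well as on expression. They are therefore compared here between cells and not between genes.

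**Figure D1:**
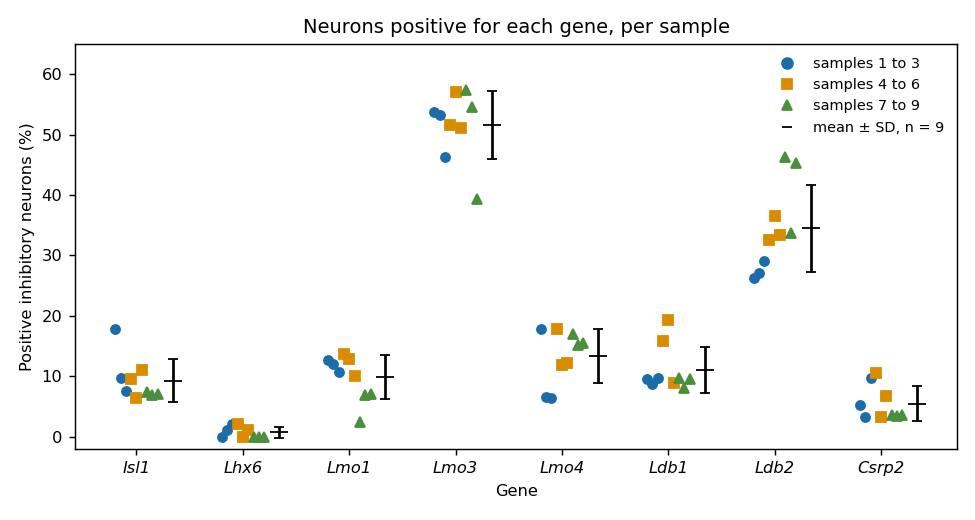
Share of inhibitory neurons positive for each gene (y axis, %), with 1 point per sample, coloured by date field, and the mean ± SD over 9 samples beside it. Sample 1 has the highest Isl1 share (17.9%), samples 7 to 9 have the 3 lowest Lmo1 shares and samples 1 to 3 the 3 lowest Ldb2 shares.

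Isl1 was positive in 76 neurons. By sample the lowest share was 6.45%, the median 7.53% and the highest 17.9%, the last in sample 1. The 76 cells held 91.7% of all Isl1 counts, with a median of 197 CPM (counts scaled to equal library totals), and 53 more neurons had an Isl1 count under the threshold. The 2 values nearest the threshold were 1.01 per 10000 inside and 0.995 outside. Isl1-positive neurons had a median of 169576 gene counts, against 123695 in Isl1-negative neurons, and the part of depth in the Isl1 results was tested by thinning, as given below.

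Lmo1 was positive in 81 neurons, from 2.44% to 13.7% of a sample with a median of 10.8%. Lmo1 averaged 11.8%, 12.2% and 5.52% over the samples of the first, the second and the third date field. Its shares of 2.44% to 7.14% under the third date field lay below those of the other 6 samples, 10% to 13.7%. Lmo3 ranged over samples from 39.3% to 57.3% with a median of 53.3%, and its date-field means were 51.1%, 53.2% and 50.4%. The 418 Lmo3-positive neurons had a median of 271 CPM.

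Ldb2 ran the other way across date fields, with means of 27.5%, 34.2% and 41.8%. By sample its lowest, median and highest shares were 26.3%, 33.3% and 46.3%. Lmo4 ranged from 6.45% to 17.9% and Ldb1 from 8.14% to 19.4%. Many neurons held counts of these last 2 genes below the threshold: 169 for Lmo4 and 244 for Ldb1, so that positive cells carried 75.2% of Lmo4 counts and 60.5% of Ldb1 counts. Csrp2 was positive in 45 neurons, from 3.23% to 10.5% of a sample with a median of 3.66%. Csrp2-positive neurons had a median of 167262 gene counts, against 124726 in Csrp2-negative neurons. The strand of counting is not given, so reads of Lmo3 and of its antisense gene A830011K09Rik, or of Ldb1 and of Pprc1 on the opposite strand, cannot be told apart. How reads shared by the close relatives Lmo1 and Lmo3 were treated is not given either.

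The promoters of the genes that differed between neuron classes are shown for Isl1, Lmo1 and Lmo3, because the homeodomain core TAAT can be read in them directly. Each is the 250 bases before a RefSeq transcription start in the mouse build GRCm38.p6, read 5′ to 3′ on the minus strand of the gene, at chr13:116309689-116309938 for Isl1, chr7:109175208-109175457 for Lmo1 and chr6:138581969-138582218 for Lmo3. Capitals mark TAAT on either strand (ATTA on the printed one).
Isl1: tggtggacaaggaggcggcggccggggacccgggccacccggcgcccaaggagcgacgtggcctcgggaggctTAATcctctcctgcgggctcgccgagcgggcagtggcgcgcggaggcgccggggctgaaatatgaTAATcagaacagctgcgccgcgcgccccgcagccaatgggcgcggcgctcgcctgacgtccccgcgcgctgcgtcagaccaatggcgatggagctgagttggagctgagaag
Lmo1: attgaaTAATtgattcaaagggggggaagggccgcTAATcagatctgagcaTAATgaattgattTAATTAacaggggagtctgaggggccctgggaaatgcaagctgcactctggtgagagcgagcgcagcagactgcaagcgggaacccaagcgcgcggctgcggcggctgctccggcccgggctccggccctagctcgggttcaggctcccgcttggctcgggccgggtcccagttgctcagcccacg
Lmo3: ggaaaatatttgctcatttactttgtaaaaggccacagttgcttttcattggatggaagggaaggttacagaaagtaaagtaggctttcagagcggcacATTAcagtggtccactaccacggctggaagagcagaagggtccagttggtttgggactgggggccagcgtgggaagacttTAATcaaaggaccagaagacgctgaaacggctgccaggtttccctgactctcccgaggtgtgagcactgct
The Isl1 and Lmo3 stretches hold 2 TAAT each, and the Lmo1 stretch holds 5. The last 2 of these overlap, 1 on each strand, and there TTAATTA can be read on both strands, again with overlap. RefSeq gives Lmo1 another start close by, and the 250 bases before that one hold 2 TAAT, those same overlapping ones. Over 32851 RefSeq promoters of the same length, 54.9% hold TAAT and 2.78% hold TTAATTA on either strand. A match is a stretch of letters, not a bound site. RefSeq entries were matched for 6 of the 8 genes, and Ldb2 and Csrp2 are named only.

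Prkcd-positive neurons, the commonest class, had less of most of these genes. Isl1, Lmo3 and Csrp2 were positive in fewer Prkcd-positive than Prkcd-negative neurons in all 9 samples, and summed counts of Isl1, Lmo1, Lmo3, Ldb2 and Csrp2 were lower. Lmo4 and Ldb1 did not pass. The sums were tested with edgeR's quasi-likelihood test with the sample as a block, adjusted over all 11486 genes tested, of which 10.1% were called lower and 7.22% higher in Prkcd-positive cells. Of the 7 genes tested, 5 were called lower and 0 higher, with a median log2 fold change of -1.03, against -0.04 over all genes tested. Lhx6 had too few counts for the fit in every comparison.

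Lmo3 was positive in 135 of 343 Prkcd-positive neurons, against 283 of 467 Prkcd-negative neurons. By sample the Prkcd-positive shares ran from 28.6% to 45.9% with a median of 39.6%, against 46.9% to 74.4% with a median of 60.7% in Prkcd-negative neurons. The groups did not overlap, as for 2.76% of the 9899 genes examined. The difference was -21.5 ± 7.89 percentage points (SD, n = 9; exact two-sided sign-flip permutation p = 0.00391, the smallest that 9 samples allow, adjusted p = 0.0479 over 9899 genes). Summed Lmo3 counts stood at 80.1 to 129 CPM in Prkcd-positive neurons, against 136 to 307 CPM in Prkcd-negative neurons, again without overlap, as for 3.94% of genes in the count fit. The log2 fold change was -1.03 ± 0.12 (SE, edgeR adjusted p = 5.51e-05).

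Isl1 was positive in 12 of 343 Prkcd-positive neurons, against 64 of 467 Prkcd-negative neurons. Sample shares ran from 0% to 7.69% with a median of 3.57% in Prkcd-positive cells, against 8.47% to 25% with a median of 12.2% in Prkcd-negative cells. These groups did not overlap either, and the difference of -10.3 ± 3.90 points had the same exact permutation p = 0.00391 and adjusted p = 0.0479. Summed Isl1 counts were 0 to 29.8 CPM in Prkcd-positive cells, against 24.1 to 74.2 CPM in Prkcd-negative cells. The log2 fold change of -2.07 ± 0.62 (edgeR adjusted p = 0.0330) lost its call without sample 1, 3, 7 or 9 (adjusted p of 0.0671, 0.0523, 0.0514 and 0.0721).

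Csrp2 was positive in 3 of 343 Prkcd-positive neurons, against 42 of 467 Prkcd-negative neurons. The Prkcd-positive shares lay between 0% and 3.57%, with 0% in 6 samples, and the Prkcd-negative shares between 4.55% and 17.0%. The difference was -7.97 ± 3.70 points (exact permutation p = 0.00391, adjusted p = 0.0479), and the log2 fold change of summed counts -4.37 ± 0.996 (edgeR adjusted p = 0.00723). In all, 4.56% of genes passed as lower and 3.6% as higher by share in this split. With 8 samples the smallest exact p is 0.00781, and none of the 3 share differences passed with a sample left out (highest adjusted p = 0.0844).

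Lmo1 was positive in 16 of 343 Prkcd-positive neurons, against 65 of 467 Prkcd-negative neurons. The Prkcd-positive shares of 2.17% to 8.33% overlapped the Prkcd-negative shares of 0% to 19.6%. In Prkcd-negative neurons the shares were 0%, 6.12% and 8.16% in samples 7 to 9, and 15.1% to 19.6% in samples 1 to 6. The difference averaged -13.9 and -14.1 points in the first and second date field and 1.55 points in the third. Summed over classes, the log2 fold change was -1.82 ± 0.56 (edgeR adjusted p = 0.0376). That call was lost without any one of samples 1 to 6 (adjusted p of 0.0888, 0.0562, 0.0951, 0.0848, 0.0861 and 0.0942).

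Ldb2 summed to 58.4 to 132 CPM with a median of 81.8 in Prkcd-positive neurons, against 84.2 to 244 CPM with a median of 129 in Prkcd-negative neurons. It was lower in 9 of 9 samples, with overlap between groups and a log2 fold change of -0.64 ± 0.13 (edgeR adjusted p = 0.00272). Its share difference averaged -0.94, -12.0 and -15.2 points over the date fields and did not pass. Ldb1 averaged 37.2 ± 6.60 CPM in Prkcd-positive neurons and 26.1 ± 7.34 CPM in Prkcd-negative neurons (SD, n = 9). Its log2 fold change of 0.56 ± 0.20 did not pass (edgeR adjusted p = 0.0782). Lmo4 had a log2 fold change of -0.14 ± 0.25 (edgeR adjusted p = 0.779).

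Depth was near equal in this split, at medians of 120868 counts in Prkcd-positive and 130131 in Prkcd-negative neurons. In neurons thinned to 74000 counts (309 of the Prkcd-positive and 424 of the Prkcd-negative cells reach that depth), the differences were -24.2 points for Lmo3, -9.54 for Isl1 and -7.04 for Csrp2, each with an exact permutation adjusted p of 0.0540. Mbp, an oligodendrocyte marker that encodes myelin basic protein, was positive in 30.9% of Prkcd-positive and 22.3% of Prkcd-negative neurons, samples pooled. With the oligodendrocyte genes Mog, Mag and Mobp it summed to 73.7 to 115 CPM with a median of 86.6 in Prkcd-positive neurons, against 42.3 to 2014 CPM with a median of 66.5 in Prkcd-negative neurons, and the sum was higher in 8 of 9 samples. Mog and Mag had no positive cell in the Prkcd-positive class. Without Mbp-positive cells the 3 share differences were -15.7, -9.84 and -8.73 points for Lmo3, Isl1 and Csrp2 (exact permutation adjusted p = 0.0669 each). In the count fit without those cells, Isl1 (log2 fold change -2.01, edgeR adjusted p = 0.111) and Lmo1 (-2.01, edgeR adjusted p = 0.0655) lost their calls. Lmo1 also lost its call with thinned cells (-1.36, edgeR adjusted p = 0.153) and in neurons with Prkcd alone against those with no marker (-1.54, edgeR adjusted p = 0.155).

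**Figure D2:**
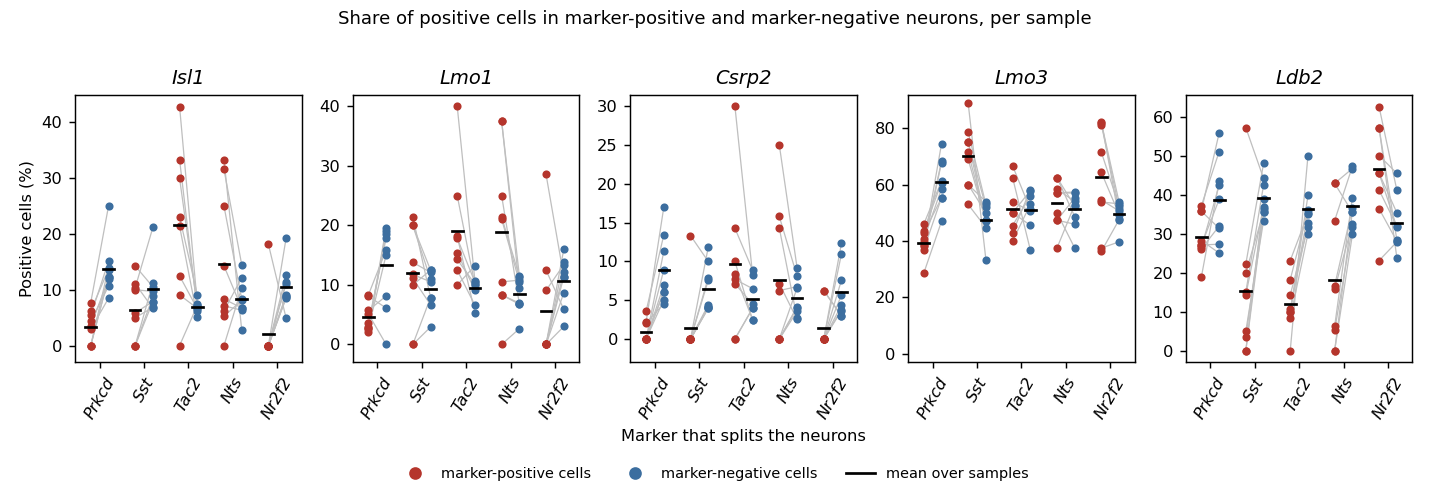
Share of cells positive for Isl1, Lmo1, Csrp2, Lmo3 and Ldb2 (y axis, %) in marker-positive (red, left) and marker-negative (blue, right) neurons of each split, with a grey line per sample and black bars for means. For Prkcd, the Isl1, Csrp2 and Lmo3 points of the positive class all lie below those of the negative class.

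In Sst-positive neurons, Lmo3 was higher and Ldb2 lower than in Sst-negative neurons. These were 1 and 1 of the 7 genes tested, where 2.28% of 11354 genes were called higher and 2.18% lower by edgeR, 4.47% in either direction. At an unadjusted edgeR p under 0.05 there were 4 of the 7, where 1814 of 11354 genes had one. DESeq2 called 3 of the 7, where it called 1353 genes in all. Groups did not overlap for 1.06% of genes in this count fit and for 1.08% by share. Lmo3 summed to 133 to 369 CPM with a median of 280 in Sst-positive neurons, against 101 to 197 CPM with a median of 143 in Sst-negative neurons. It was higher in 9 of 9 samples with overlap between the groups, and its log2 fold change was 0.84 ± 0.15 (edgeR adjusted p = 0.00584). As a share, 70.1% ± 11 of Sst-positive and 47.6% ± 6.19 of Sst-negative neurons were Lmo3-positive. That difference of 22.5 ± 14.9 points reached the smallest exact permutation p, 0.00391, but not the adjusted threshold (adjusted p = 0.116), and 15.1% of all genes had an unadjusted p under 0.05 in this split.

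Ldb2 summed to 7.54 to 194 CPM with a median of 29.4 in Sst-positive neurons, against 97.5 to 190 CPM with a median of 117 in Sst-negative neurons. Sample 7 stood apart, with 57.1% of Sst-positive neurons positive for Ldb2, while the other 8 samples were lower in Sst-positive cells. The log2 fold change was -2.03 ± 0.38 (edgeR adjusted p = 0.00708), and -2.31 without sample 7 (adjusted p = 0.00286). Without the sample block the Ldb2 call was lost (log2 fold change -1.40, edgeR adjusted p = 0.0895). Csrp2 had a log2 fold change of -2.50 ± 0.79 and was lower in 8 of 9 samples, without passing (edgeR adjusted p = 0.104). In neurons with Sst alone against those with no marker, Ldb2 (-2.55, edgeR adjusted p = 0.192) and Lmo3 (0.97, edgeR adjusted p = 0.607) lost their calls. Only 5 samples held at least 5 Sst-alone neurons, and edgeR called 1 of the 9717 genes tested there. Mbp, Mog, Mag and Mobp summed to a median of 97.7 CPM in Sst-positive and 68.4 CPM in Sst-negative neurons, higher in 8 of 9 samples. Without Mbp-positive cells the log2 fold changes were 0.87 for Lmo3 (edgeR adjusted p = 0.0307) and -2.03 for Ldb2 (edgeR adjusted p = 0.00993). The other members did not pass, with log2 fold changes from -1.25 (Isl1) to 0.14 (Lmo1), and the median over the 7 was -0.51, against -0.17 over all genes tested.

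Tac2-positive neurons gave no edgeR call for any of the 7 genes, with 0.713% of 11365 genes called higher and 0.766% lower, and groups did not overlap for 1.02%. At an unadjusted edgeR p under 0.05 there were 3 of the 7, where 1524 of 11365 genes had one. DESeq2 called 2 of the 7, where it called 961 genes in all. Sample 7 had 4 Tac2-positive cells, under the 5 required, so 8 samples entered. Isl1 was positive in 27 of 106 Tac2-positive neurons, against 43 of 622 Tac2-negative neurons. Sample shares were 0% to 42.9% with a median of 22.3% in Tac2-positive cells, against 5.06% to 9.09% with a median of 6.86% in Tac2-negative cells. Higher in 7 of 8 samples, the difference of 14.6 ± 13.9 points missed the adjusted threshold (exact permutation p = 0.0312, adjusted p = 0.301). Its size differed by date field, at 26.3, 9.90 and 4.17 points. Of all 27 cells positive for both genes, 12 came from sample 1, which held 28 of the 110 Tac2-positive cells.

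Lmo1 was positive in 20 of 106 Tac2-positive neurons, against 59 of 622 Tac2-negative neurons. Its sample shares of 10% to 40% overlapped the 5.33% to 13.3% of Tac2-negative cells, and the difference of 9.72 ± 9.68 points missed it too (exact permutation p = 0.0156, adjusted p = 0.224). Ldb2 pointed the other way, positive in 13 of 106 Tac2-positive neurons, against 226 of 622 Tac2-negative neurons. It lay at 0% to 23.1% in Tac2-positive cells, against 30% to 50% in Tac2-negative cells, so the groups did not overlap, as for 1.59% of genes in this split. The Ldb2 difference of -24.5 ± 11.6 points had an exact permutation p of 0.00781, which is the smallest possible with 8 samples (adjusted p = 0.185). In the count fit its log2 fold change was -1.34 ± 0.46 (edgeR adjusted p = 0.210).

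The Tac2-positive neurons were not uniform. Of the 27 that were Isl1-positive, 6 were Sst-positive, 8 Ldb2-positive and 7 Csrp2-positive. Of the 83 without Isl1, 55 were Sst-positive, 5 Ldb2-positive and 3 Csrp2-positive. Among the 26 neurons positive for Tac2 and for none of the other 4 markers, 15 were Isl1-positive, 6 of them among the 7 such cells of sample 1. These counts pool samples and carry no test.

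Nts-positive neurons had less Ldb2, the only one of the 7 genes called, where 1.26% of 11250 genes were called lower and 1.01% higher. Groups did not overlap for 0.862% of genes in this count fit and for 1.08% by share. Ldb2 summed to 9.30 to 159 CPM with a median of 36.6 in Nts-positive neurons, against 98.3 to 194 CPM with a median of 116 in Nts-negative neurons. It was lower in 9 of 9 samples although the groups overlapped, with a log2 fold change of -1.48 ± 0.34 (edgeR adjusted p = 0.0376). The call was lost without sample 1, 2, 3, 6 or 8 (adjusted p of 0.0796, 0.0834, 0.0829, 0.0679 and 0.0901), without the sample block (0.187) and without Mbp-positive cells (0.196). Mbp, Mog, Mag and Mobp summed to a median of 85.9 CPM in Nts-positive and 68.4 CPM in Nts-negative neurons, higher in 6 of 9 samples. Lmo1 was positive in 21 of 115 Nts-positive neurons, against 60 of 695 Nts-negative neurons. That difference of 10.3 ± 11.5 points missed the adjusted threshold (exact permutation p = 0.0312, adjusted p = 0.294). It was 12.7, 18.1 and 0.10 points by date field.

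Isl1 was lower in Nr2f2-positive neurons, the only one of the 7 genes called there by edgeR. At an unadjusted edgeR p under 0.05 there were 5 of the 7, where 1527 of 11007 genes had one. DESeq2 called 4 of the 7, where it called 1053 genes in all. Besides Isl1 these were Csrp2 and Lmo1, both lower, and Ldb2, which was higher (DESeq2 adjusted p of 0.00137, 0.00695 and 0.0157). Isl1 counts summed to 170 in Nr2f2-positive neurons, against 3578 in Nr2f2-negative neurons, where 1.33% of 11007 genes were called lower and 0.4% higher, 1.73% in either direction. Groups did not overlap for 0.627% of genes in the count fit and for 0.677% by share. Among the 116 Nr2f2-positive cells 2 were Isl1-positive, both in sample 5, against 74 of 694 Nr2f2-negative cells. By sample the summed Isl1 level was 0 to 62.1 CPM with a median of 0.48 in Nr2f2-positive neurons, against 17.5 to 56.5 CPM with a median of 36.1 in Nr2f2-negative neurons. The log2 fold change was -5.82 ± 1.05 (edgeR adjusted p = 0.0121), and -6.73 without sample 5 (adjusted p = 0.00061). This fit, which weighs samples within the block, gives a larger fold than the mean levels of 7.22 and 36 CPM in Nr2f2-positive and Nr2f2-negative neurons. Without the block the call was lost (log2 fold change -2.20, edgeR adjusted p = 0.40), as it was at 3 per 10000 (-5.42, edgeR adjusted p = 0.178) and in neurons with Nr2f2 alone against those with no marker (-5.89, edgeR adjusted p = 0.431). Only 6 samples held at least 5 Nr2f2-alone neurons, and edgeR called 3 of the 9423 genes tested there. Mbp, Mog, Mag and Mobp summed to a median of 78.0 CPM in Nr2f2-positive and 71.7 CPM in Nr2f2-negative neurons, higher in 4 of 9 samples.

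Ldb2 and Lmo3 stood on the high side in Nr2f2-positive neurons without passing by edgeR. Ldb2 was positive in 54 of 116 Nr2f2-positive neurons, against 223 of 694 Nr2f2-negative neurons, and its summed counts were higher in 9 of 9 samples (log2 fold change 0.52 ± 0.15, edgeR adjusted p = 0.115). Lmo3 was positive in 73 of 116 Nr2f2-positive neurons, against 345 of 694 Nr2f2-negative neurons (log2 fold change 0.34 ± 0.13, edgeR adjusted p = 0.267). Lhx6 was positive in 0 of 116 Nr2f2-positive cells, which allows a share of up to 2.59%, and in 0 of 343 Prkcd-positive cells, which allows up to 0.875%. Of the 40 share differences over the 5 splits, the 37 outside Isl1, Lmo3 and Csrp2 in the Prkcd split did not pass. In the Sst, Tac2, Nts and Nr2f2 splits no gene of the 9899 passed the exact permutation test after adjustment, while 15.1%, 13.1%, 13.3% and 10.6% had an unadjusted p under 0.05.

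**Figure D3:**
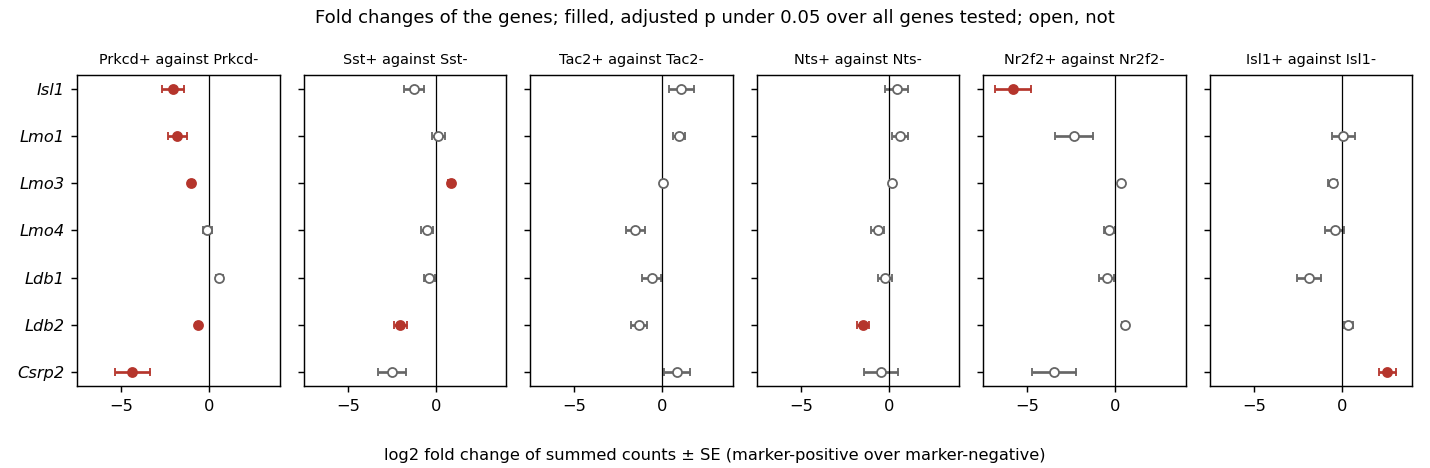
Log2 fold change of summed counts ± SE (x axis) for 7 genes (rows) in 6 splits (panels), marker-positive over marker-negative neurons, filled red where the edgeR adjusted p was under 0.05. Prkcd has 5 filled points, all below 0, and Lmo3 is below 0 for Prkcd and above 0 for Sst.

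Shares in neurons positive for 1 marker alone are described here on pooled cells with no test. Lmo3 was most frequent in Sst-alone neurons (83.0% of 53), then in Nr2f2-alone (74.1% of 58), Nts-alone (61.5% of 26), marker-negative (53.7% of 218), Prkcd-alone (38.0% of 258) and Tac2-alone neurons (34.6% of 26). Isl1 was most frequent in Tac2-alone neurons (57.7%), then in Nts-alone (23.1%), marker-negative (14.7%) and Sst-alone neurons (7.55%), and lowest in Nr2f2-alone (1.72%) and Prkcd-alone neurons (1.55%). Csrp2 had the same head of the list, at 34.6% in Tac2-alone and 23.1% in Nts-alone neurons, with 1 positive cell among the 258 of Prkcd alone. Ldb2 was at 61.5% in Nts-alone and 55.2% in Nr2f2-alone neurons and at 17.0% in Sst-alone neurons. In the 171 neurons with several markers Ldb2 was at 16.4%. Means over samples with at least 5 such cells could be taken for Prkcd alone (9 samples), Nr2f2 alone (6) and Sst alone (5). For Lmo3 they were 85.7% ± 16.5 in Sst-alone and 72.6% ± 18.2 in Nr2f2-alone neurons. They were 37.6% ± 6.13 in Prkcd-alone and 53.4% ± 7.82 in marker-negative neurons. The Tac2-alone and Nts-alone classes reached 5 cells in 2 samples each, so their order cannot be set against a spread.

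**Figure D4:**
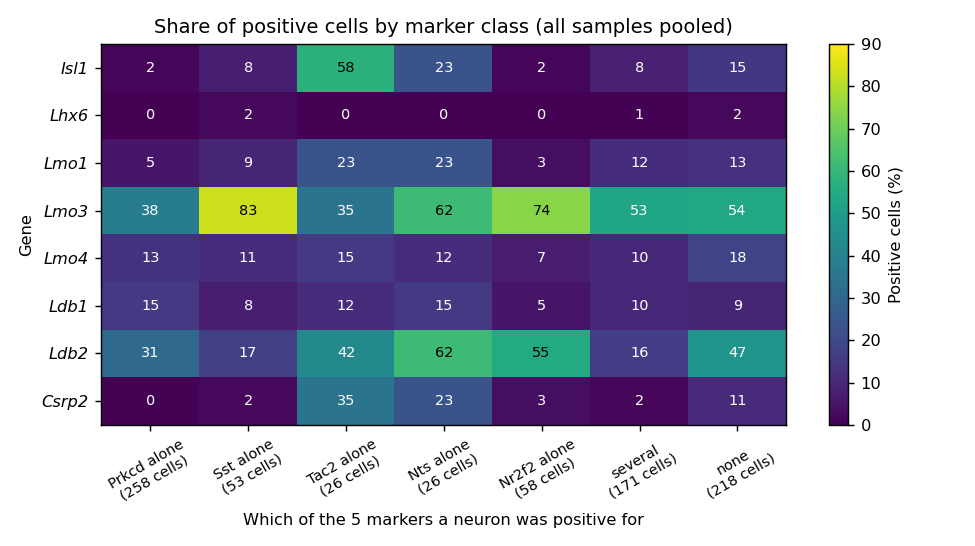
Share of cells positive for each gene (rows, colour and printed value in %) by which of the 5 markers a neuron was positive for (columns, cell numbers below), samples pooled. Lmo3 is brightest in the Sst-alone column and Isl1 in the Tac2-alone column.

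Isl1-positive neurons had more Csrp2 than Isl1-negative neurons. Of 6 genes tested, Csrp2 was called higher and none lower, where 1.69% of 11168 genes were called higher and 3.15% lower, 4.84% in either direction, and groups did not overlap for 1.45%. Csrp2 summed to 13.3 to 97.2 CPM with a median of 60 in Isl1-positive neurons, against 2.24 to 23.2 CPM with a median of 7.28 in Isl1-negative neurons. It was higher in 9 of 9 samples, with overlap between the groups and a log2 fold change of 2.57 ± 0.50 (edgeR adjusted p = 0.00852). With cells thinned to 74000 counts the adjusted p was 0.0504 at a log2 fold change of 2.76, and without Mbp-positive cells 0.0744 at 2.26. Mbp was positive in 22.4% of Isl1-positive and 26.3% of Isl1-negative neurons, samples pooled. Mbp, Mog, Mag and Mobp summed to 20.6 to 115 CPM with a median of 33.0 in Isl1-positive neurons, against 54.3 to 1406 CPM with a median of 72.3 in Isl1-negative neurons, and the sum was higher in 3 of 9 samples. Mog, Mag and Mobp had no positive cell among the Isl1-positive neurons. Ldb1 was lower in 9 of 9 samples without passing (log2 fold change -1.86 ± 0.69, edgeR adjusted p = 0.146). Lmo3 had a log2 fold change of -0.52 ± 0.25 (adjusted p = 0.252).

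Overlap of positive cells was set against the number expected if the genes were independent within each sample. Isl1 and Csrp2 shared 17 neurons, against 4.32 expected, with more than expected in 8 of 9 samples. That pair had an exact two-sided sign-flip permutation p = 0.00781 and an adjusted p of 0.0935 over 9899 genes tested against Csrp2, of which 15.4% had an unadjusted p under 0.05. None of the 28 pairs passed, and 5 had an unadjusted exact permutation p under 0.05. For each of the 8 genes, 0 of the 9899 genes tested against it passed above or below expectation. An unadjusted p under 0.05 was found for 18.6% of the genes tested against Isl1, 10.4% against Lmo1 and 8.8% against Ldb2. These shares were 7.9% against Lmo3, 6.51% against Ldb1, 6.14% against Lmo4 and 0% against Lhx6. The next pairs by unadjusted p were Csrp2 with Lmo1, which shared 12 neurons against 4.81 expected (exact permutation p = 0.0156), and Csrp2 with Lmo3, which shared 16 against 22.9 expected (exact permutation p = 0.0195). Isl1 and Lmo3 shared 30 neurons against 39.4 expected (exact permutation p = 0.0352), and Isl1 and Lmo1 shared 14 against 7.98 expected (exact permutation p = 0.0469). Lmo1 and Lmo3 shared 42 against 41.9 expected, and Lmo4 and Lmo3 56 against 56.0. The 2 LIM domain-binding genes shared 24 neurons against 31.0 expected (exact permutation p = 0.121).

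**Figure D5:**
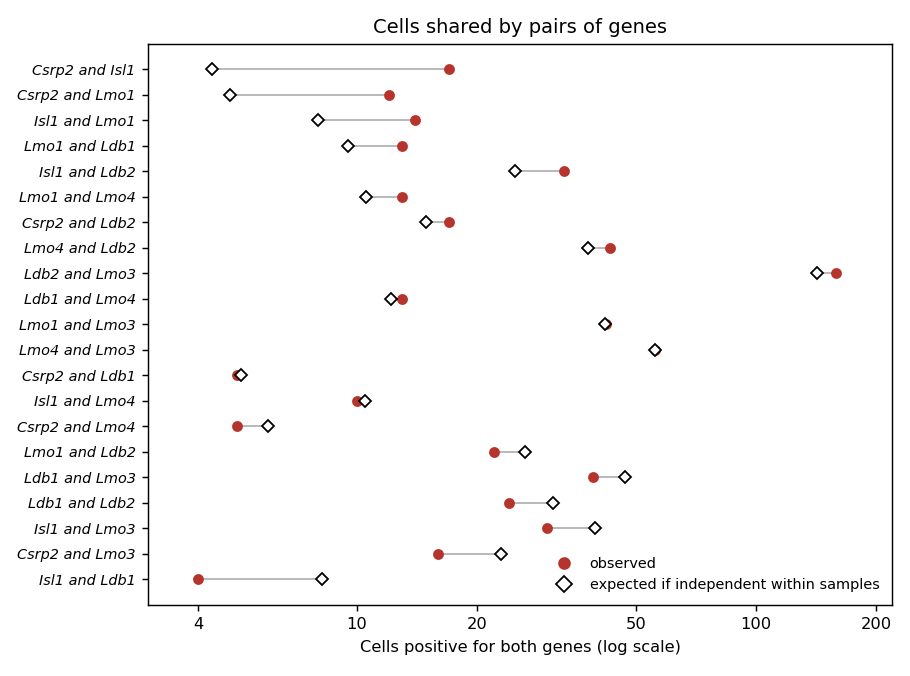
Neurons positive for both genes of a pair (x axis, log scale), observed (red) and expected under independence within samples (diamonds), for the 21 pairs without Lhx6. On this log axis, which shows ratios, the Csrp2 and Isl1 pair lies farthest above expectation (17 against 4.32) and the Isl1 and Ldb1 pair farthest below (4 against 8.19). In cells, Ldb2 with Lmo3 has the largest excess (159 against 142) and Isl1 with Lmo3 the largest deficit (30 against 39.4).

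Most neurons were positive for few of these genes. None of the 8 was positive in 156 neurons, 1 in 326, 2 in 234, 3 in 72 and 4 or more in 22. Lmo3 alone was the commonest pattern (168 neurons), followed by Lmo3 with Ldb2 (105) and Ldb2 alone (67). An Lmo gene was positive in 503 neurons, several of them in 97 and all 3 in 7. A LIM homeodomain or Lmo gene was positive in 537 neurons and Ldb1 or Ldb2 in 343, and both kinds met in 234, against 226 expected.

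Other genes with the most similar positive calls were ranked by the phi coefficient within samples, over 810 cells that share libraries and depth, as a description with no test. For Isl1 these were Fxyd6 (0.38), Nefm (0.38), Pnoc (0.38), Elavl2 (0.30) and Nefl (0.30). Fxyd6 encodes a regulator of the sodium pump, Nefm and Nefl are neurofilament subunits, Pnoc is the nociceptin precursor and Elavl2 a neuronal RNA-binding protein. Of the 76 Isl1-positive neurons, 61 were Nefm-positive and 41 Pnoc-positive, among 220 and 112 such neurons in all. For Csrp2 the genes were Fxyd6 (0.32), Aldoc (0.30), a glycolytic aldolase, and Phyh (0.27), a peroxisomal enzyme. Fxyd6 therefore headed both lists. For Lmo1 they were Gfra2, Entpd7 and Aldoc (0.21 each), for Lmo3 Cpne5 (0.21), Pcsk2 (0.20) and Htr2c (0.19), and for Ldb2 Ap1s2 (0.22), Atp2b4 (0.22) and Upk1b (0.21). Coefficients for Lmo4 and Ldb1 reached at most 0.154.

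Relatives and partners of the family were read from fixed lists. In the Prkcd split edgeR called 7.22% of all genes tested higher and 10.1% lower. These shares were 2.28% and 2.18% for Sst, 0.713% and 0.766% for Tac2, and 1.01% and 1.26% for Nts. They were 0.4% and 1.33% for Nr2f2, and 1.69% and 3.15% for Isl1. Of 10 other LIM homeodomain and Lmo genes, 6 were in the table and 0 had enough counts for a test in any split. Among partners of Ldb and Lmo proteins, 9 of 13 were tested in Prkcd-positive neurons, of which 1 was higher and 2 lower, with a list median log2 fold change of -0.17. The E proteins Tcf12 and Tcf4, which pair with basic helix-loop-helix factors, differed in direction. Tcf12 averaged 89.7 ± 26.5 CPM in Prkcd-positive and 13.7 ± 6.18 CPM in Prkcd-negative neurons (SD, n = 9; log2 fold change 2.81 ± 0.28, edgeR adjusted p = 9.72e-06). Tcf4 averaged 4.58 ± 3.04 CPM in Prkcd-positive and 27.7 ± 24.5 CPM in Prkcd-negative neurons (log2 fold change -2.25 ± 0.52, edgeR adjusted p = 0.00830). Ssbp3, a single-stranded DNA-binding protein that binds Ldb proteins, was lower (-0.63 ± 0.18, edgeR adjusted p = 0.0273). In Nts-positive neurons its relative Ssbp2 was lower (-0.55 ± 0.12, edgeR adjusted p = 0.0301). In the Sst, Tac2, Nr2f2 and Isl1 splits edgeR called no partner. There 3, 2, 2 and 4 of the 9 had an unadjusted edgeR p under 0.05, and DESeq2 called 2, 1, 1 and 2. Over all genes tested, the unadjusted counts were 1814 of 11354 (Sst), 1524 of 11365 (Tac2), 1527 of 11007 (Nr2f2) and 2258 of 11168 (Isl1). DESeq2 called 1353, 961, 1053 and 1988 of the genes tested.

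Other LIM domain proteins had 16 of 26 members tested in the Prkcd split, with 5 higher and 2 lower and a median of 0.14. Over all genes tested there, 7.22% were called higher and 10.1% lower. Crip2, Prickle2 and Tgfb1i1 were higher in Prkcd-positive neurons in 9 of 9 samples, with log2 fold changes of 0.85 ± 0.08, 0.98 ± 0.12 and 1.48 ± 0.33 (edgeR adjusted p of 5.04e-06, 8.51e-05 and 0.00662). Prickle2, a planar cell polarity protein, was lower in Sst-positive neurons (-0.78 ± 0.16, edgeR adjusted p = 0.0121). In Isl1-positive neurons 1 of 16 passed, where 4.84% of all genes tested passed in either direction. This was Limd1, which was lower (-4.04 ± 0.94, edgeR adjusted p = 0.0225). In the Tac2, Nts and Nr2f2 splits edgeR called none of this list. There 2, 1 and 2 had an unadjusted edgeR p under 0.05, and DESeq2 called 1, 0 and 1. Over all genes tested, 1524 of 11365, 1586 of 11250 and 1527 of 11007 had such a p. DESeq2 called 961, 1157 and 1053 of the genes tested.

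Genes of striatal direct-pathway neurons, where Isl1 is known to act, gave 0 edgeR calls among 7 tested in Isl1-positive neurons (1 at an unadjusted p under 0.05, and 0 by DESeq2), with a median log2 fold change of 0.76, against -0.34 over all genes tested. In Prkcd-positive neurons 4 of 7 were lower, where 10.1% of all genes tested were lower. Drd1a (the dopamine D1 receptor, -6.85 ± 0.71, edgeR adjusted p = 1.54e-05) and Pdyn (prodynorphin, -2.46 ± 0.44, edgeR adjusted p = 0.00148) were among the 4. Pdyn was higher in Sst-positive neurons (4.96 ± 0.20, edgeR adjusted p = 4.18e-09), as was Zfp503, a zinc finger factor (1.17 ± 0.29, edgeR adjusted p = 0.0348). Pdyn was also higher in the Tac2 and Nts splits, the 1 gene of 7 called in each, and Pdyn and Drd1a were the 2 of 7 called in Nr2f2-positive neurons, both lower. Genes of the medial ganglionic eminence and of interneurons form a list that shares Tac1 with the striatal one. It gave 2 higher and 0 lower of 8 tested in Isl1-positive neurons, where 1.69% of all genes were higher and 3.15% lower. Calb2, which encodes calretinin, averaged 71.5 ± 34.1 CPM in Isl1-positive and 12.3 ± 4.03 CPM in Isl1-negative neurons (log2 fold change 2.48 ± 0.34, edgeR adjusted p = 0.000965). Satb1, a chromatin organiser, had a log2 fold change of 2.16 ± 0.50 (edgeR adjusted p = 0.0213). In Prkcd-positive neurons 1 of 10 in this list was higher (Pvalb) and 6 lower, where 7.22% of all genes were higher and 10.1% lower. For the other splits the shares over all genes are those given with the partners. Sst-positive neurons had 1 higher (Kit) and 1 lower of 10, Tac2-positive and Nts-positive neurons 1 lower of 8 each (Npy and Calb1), and Nr2f2-positive neurons 1 higher (Calb1) and 2 lower of 10 (Npy and Satb1).

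Cholinergic genes were read because cholinergic neurons use Isl1. Of 9 listed, 8 were in the table and only Ache had enough counts for a test; in the Sst, Tac2, Nts and Nr2f2 splits edgeR and DESeq2 did not call it and its unadjusted p was not under 0.05. The acetyltransferase gene Chat was positive in 7 of the 810 neurons. Of these, 6 were Isl1-positive, and all 7 had at least 1 count of Isl1 and of Lhx6. Prkcd was positive in 4 of the 7, and Sst, Tac2, Nts and Nr2f2 in 0. Those 4 therefore belong to the 258 Prkcd-alone neurons, of which 4 were Isl1-positive. How far these 2 sets of 4 cells coincide is not given here, and the Prkcd split was not refitted without Chat-positive cells. None of the 7 was positive for Lhx6, whose counts all lay under the threshold, or for Lmo1, Lmo3, Ldb1, Ldb2 or Csrp2. A count of 0 of 7 allows a share of up to 42.9%. Ache, the acetylcholinesterase gene, was lower in Prkcd-positive neurons (log2 fold change -0.80 ± 0.15, edgeR adjusted p = 0.00197) and higher in Isl1-positive neurons (1.64 ± 0.17, edgeR adjusted p = 0.000143), and 1.26 ± 0.20 without the Chat-positive cells (adjusted p = 0.00237). Without those cells the log2 fold change of Csrp2 was 2.81 ± 0.50 (edgeR adjusted p = 0.00520).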

How the data were processed

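The table the authors deposited holds unnormalized counts for each cell and gene symbol, with 91 spike-in rows, and a second deposited table names each cell's animal number. The build NCBIM37 and the tool Seurat are named, per the submitters' processing notes. The sources used here do not give the aligner, strand, annotation or any use of molecular identifiers. Counts may therefore hold PCR copies, and the limits beside a share of 0, which use a floor of 3 counts, cover counting error only.

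The genes and gene lists were chosen with earlier results of these data known. Sums over the cells of a class in a sample, made where both classes held 5 or more cells, were tested with edgeR 4.0.16 in R 4.3.3. The fit used TMM scaling, filterByExpr and the quasi-likelihood test, and the sample was a block since both classes come from it. Adjusted p-values are Benjamini-Hochberg over all genes tested, with a threshold of 0.05. Fold changes are marker-positive over marker-negative. Shares and shared cells were tested over samples with an exact two-sided permutation of signs, adjusted over the 9899 genes positive in at least 2% of neurons. That test assumes deviations that are symmetric about 0, which fails where few shared cells are expected. Gene counts summed to between 8522750 and 22730327 in a sample. The fits were also run on simulated sums, with an outcome that is not given here. Those sums had no sample effect beyond library size, and only genes above the median level were changed. Other tools were DESeq2 1.42.0, Python 3.11.15, numpy 2.4.6, pandas 2.3.3 and scipy 1.17.1.

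Genes named from lists are up to 3 per list and split, by smallest adjusted p among those that passed with a mean of at least 10 CPM in either class. Similar genes are the top 5 for Isl1 and the top 3 for other genes, by phi. No cell was removed for low counts (9 neurons had under 20000, the lowest 401), and no doublet caller was run, with 23 neurons positive for Prkcd and Sst. Alternatives were median-of-ratios scaling, DESeq2, no filter on low counts, no sample block, each sample left out, a threshold of 1 count or of 3 per 10000, thinning of each cell to 74000 counts (seed 7), no cells under 20000 counts, no Mbp-positive cells, and neurons with 1 marker alone against those with none. Leaving out Chat-positive cells was chosen after seeing the data. Whether same-numbered samples are paired does not arise, since every comparison is within samples. Summed oligodendrocyte markers are Mbp, Mog, Mag and Mobp; another marker of the list is not reported here.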

Additional observations from a re-analysis of the deposited data

Results flagged for a closer look

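In 7 of 43 groups of sample values examined, 1 sample lay far from the others, where chance gives about 1 in 20 for normally distributed values. Shares of few cells move in coarse steps, so that rate need not hold here. Marker-positive cells in a sample numbered 9 to 29 for Sst, 7 to 19 for Nts and 7 to 17 for Nr2f2. Samples 4 and 9 had 10 and 8 Tac2-positive cells. Isl1 was positive in 17.9% of the neurons of sample 1, against 6.45% to 11.1% in the other samples. Ldb2 differed between Sst-positive and Sst-negative neurons by 13.0 percentage points in sample 7, against -38.8 to -15.5 in the others. Lmo3 differed between the same classes by 55.6 points in sample 9, against 6.05 to 27.8. Between Tac2-positive and Tac2-negative neurons, Csrp2 differed by 21.8 points in sample 4, against -4.00 to 7.59, and Ldb2 by -50 points in sample 9, against -29.8 to -12.0. Lmo4 differed between Nts-positive and Nts-negative neurons by 28.2 points in sample 7, against -9.21 to -1.49. Isl1 differed between Nr2f2-positive and Nr2f2-negative neurons by 13.3 points in sample 5, against -19.3 to -8.54.

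The 19 cells left out as not inhibitory neurons also held some of these genes. Ldb2 was positive in 4 of them and Csrp2 in 4, a share of 21.1% each, above the 15.8% that a count of 0 would allow. In inhibitory neurons the mean shares were 34.5% for Ldb2 and 5.48% for Csrp2, and the difference was not tested. Lmo3 was positive in 3 of the 19 cells and Lhx6 and Ldb1 in 0. Sample 9 gave the largest number of these cells, with 84 inhibitory neurons among its 93 cells.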

How the results depend on the processing

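No called direction reversed under any alternative run. The genes called numbered 1990 in the Prkcd split, 507 for Sst, 168 for Tac2, 256 for Nts, 190 for Nr2f2 and 541 for Isl1. With 1 sample left out they ranged over 1682 to 1807, 320 to 452, 70 to 133, 167 to 266, 84 to 140 and 394 to 476. DESeq2 called 1353 for Sst, 961 for Tac2, 1157 for Nts, 1053 for Nr2f2 and 1988 for Isl1. Calling cells positive at 1 count gave 659 (Prkcd), 13 (Sst), 18 (Tac2) and 44 (Nts), and at 3 per 10000 gave 12 for Nr2f2. Without Mbp-positive cells there were 199 (Sst), 63 (Tac2), 94 (Nts), 67 (Nr2f2) and 296 (Isl1), with fewer cells in each class. Neurons with 1 marker alone gave 1206 (Prkcd), 1 (Sst) and 3 (Nr2f2), where 9, 5 and 6 samples held at least 5 such neurons. The cause of these differences was not tested. Fits without the sample block (no replicate block) moved no count by over 1.5 times (1820 for Prkcd and 469 for Sst), and ended the calls of Ldb2 in the Sst and Nts splits and of Isl1 in the Nr2f2 split.

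Of the member share differences, 3 passed, and 0 passed at 1 count, at 3 per 10000, thinned, without Mbp-positive cells, or with any sample left out (0 to 0), where 8 samples allow no exact p under 0.00781. Lmo3 in the Prkcd split kept its edgeR call under every alternative run. At 1 count the calls of Isl1, Lmo1, Ldb2 and Csrp2 in the Prkcd split, of Lmo3 and Ldb2 in the Sst split, of Ldb2 in the Nts split and of Isl1 in the Nr2f2 split were lost. Calls were also lost without Mbp-positive cells (Isl1 and Lmo1 for Prkcd, Ldb2 for Nts, Csrp2 for Isl1), with thinning (Lmo1 for Prkcd, Csrp2 for Isl1), with 1 marker alone (Lmo1 for Prkcd, Ldb2 and Lmo3 for Sst, Isl1 for Nr2f2) and at 3 per 10000 (Isl1 for Nr2f2). Of pairs, 0 passed with any sample left out (0 to 0), and 1 at 3 per 10000, Isl1 with Lmo1, below expectation by -0.46 cells with 0 shared, so that no sample could lie above it. At 1 per 10000 the same pair lay above expectation (14 shared, against 7.98). The 31 fold changes that did not pass gave 564 values under other settings, of which 8 passed and 24 had the other sign. DESeq2, with 1 value for each result, gave 7 of the 8. These were Csrp2, Ldb2 and Lmo1 for Nr2f2, Lmo1 and Lmo4 for Tac2, Csrp2 for Sst and Ldb1 for Isl1. Csrp2 for Sst also passed at 3 per 10000. Tac2 alone, Nts alone and Isl1 at 3 per 10000 left too few samples and were not run.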

Other observations

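Shares of cells positive for a peptide gene and a calcium-binding protein gene are given for Isl1-positive and Isl1-negative neurons as pooled counts with no test and no thinning, at median depths of 169576 and 123695 gene counts. Penk, the enkephalin precursor gene, was positive in 36 of the 76 Isl1-positive neurons, or 47.4%, against 592 Isl1-negative neurons, or 80.7%. Calb2 was positive in 19 of the 76, or 25%, against 33 Isl1-negative neurons, or 4.50%.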
